A study of Arabidopsis thaliana with 6 samples.

Results

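The genes described here differed from dark-grown wild type in dark-grown seedlings of the pifQ mutant, while their mean stayed close to dark-grown wild type in seedlings grown in red light. They are 59 of the 7234 Arabidopsis thaliana genes with a named array feature (0.816%), 51 of them lower and 8 higher in pifQ. They were chosen on their measured values: all 3 pifQ arrays had to lie at least 0.3 from 0 on the same side, the pifQ mean at least 0.5 from 0, and the mean of the 3 red light arrays within 0.3 of 0, on the log2 scale. The genes between AT2G41200 and AT2G44990, a stretch of chromosome 2 that holds PIF4, and genes with symbols of 9 named families were left out, which removed 10 further genes with such values. Because the values chose the members, those values are given below as a description, and no test of them is offered.

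The data are log2 ratios from 6 two-colour arrays. On 3 arrays the labelled sample was Col-0 wild type kept for 60 h in red light without a break (24 μmol m-2 s-1), and on 3 arrays it was the quadruple mutant pifQ (pif3 pif4 pil5 pil6, where PIL5 is PIF1 and PIL6 is PIF5) kept for 60 h in darkness, each set in Cy5 against dark-grown Col-0 in Cy3. All seedlings, the controls included, had 3 days of cold, dark imbibition (4 °C, medium with 1% sucrose) and then white light for 6 h (100 μmol m-2 s-1). Replicates were grown and harvested independently, per the labels; the sources used here do not give the mutant alleles, the number of seedlings pooled or the number of dark Col-0 extracts. No sample was pifQ in red light, so the effect of the mutations under light was not measured. RNA came from whole seedlings, so fewer cells of a type and less RNA per cell cannot be told apart.

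PIF proteins are basic helix-loop-helix transcription factors that accumulate in darkness and hold the seedling in its etiolated form, with a long hypocotyl and closed, pale cotyledons. In light, active phytochrome binds PIFs and brings about their phosphorylation and degradation. A seedling that lacks PIF1, PIF3, PIF4 and PIF5 therefore takes on much of the light-grown form in darkness, and many of its transcripts move the way red light moves them in wild type.

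The pifQ arrays resembled each other less than the red light arrays did. Across the named genes, which are not independent replicates, r between arrays of a group was 0.812 to 0.913 for red light and 0.423 to 0.615 for pifQ, and pifQ replicate 3 gave both of the lower pifQ values (0.506 and 0.423). With the 3 red light arrays this replicate gave higher values, from 0.593 to 0.696. The median SD over the 3 arrays was 0.243 for pifQ and 0.171 for red light. Of the 4 mutated PIF genes none has a named feature, and of 22 tissue marker genes (root, guard cell, shoot apex, epidermis, vasculature, seed storage) 2 were measured, EXPA18 of root hairs and FAMA of guard cells, so neither the mutant nor the tissue could be checked closely. The log2 ratio of EXPA18 was 0.23 ± 0.13 in pifQ and -0.21 ± 0.41 in red light, and that of FAMA was 0.19 ± 0.47 and 0.86 ± 0.05 (SD, n = 3 arrays, as for all errors below). Their part in the results was not tested.

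The numbers of lower and higher genes that met the rule changed with the scaling and with the arrays used. With each array centred on its median over named genes, the same rule gave 35 lower and 10 higher genes, of which 32 and 8 were members. With quantile normalization it gave 72 and 26, of which 50 and 8 were members. Without pifQ replicate 3 the rule took in 147 lower and 47 higher genes, without pifQ replicate 1 it took in 79 and 29, and without pifQ replicate 2, 56 and 18. With a pifQ array left out the rule is looser by construction, since fewer pifQ arrays have to pass it. These counts therefore cannot show how far the split depended on any pifQ array. Without red light replicate 1 the rule took in 55 lower and 10 higher genes, without replicate 2, 45 and 9, and without replicate 3, 49 and 6. In all, 15 members met the rule under each of the 3 scalings tried and without each of the 6 arrays: AT2G40920, AT2G05910, tny, NGA1, AT4G17280, ALN, PUB25, AT5G67140, AT5G45430, AT3G32980, AT2G40600 and AT2G40800 among the lower genes and AT1G55210, AT1G06260 and JAL22 among the higher ones. Several of these checks could hardly fail. The pifQ means of the 8 higher members rose under all 3 scalings, and each scaling kept all 8. Scaling the arrays to the same spread kept all 51 lower members. The values that chose the members were used again here, so this list is a description and no test.

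**Figure D1:**
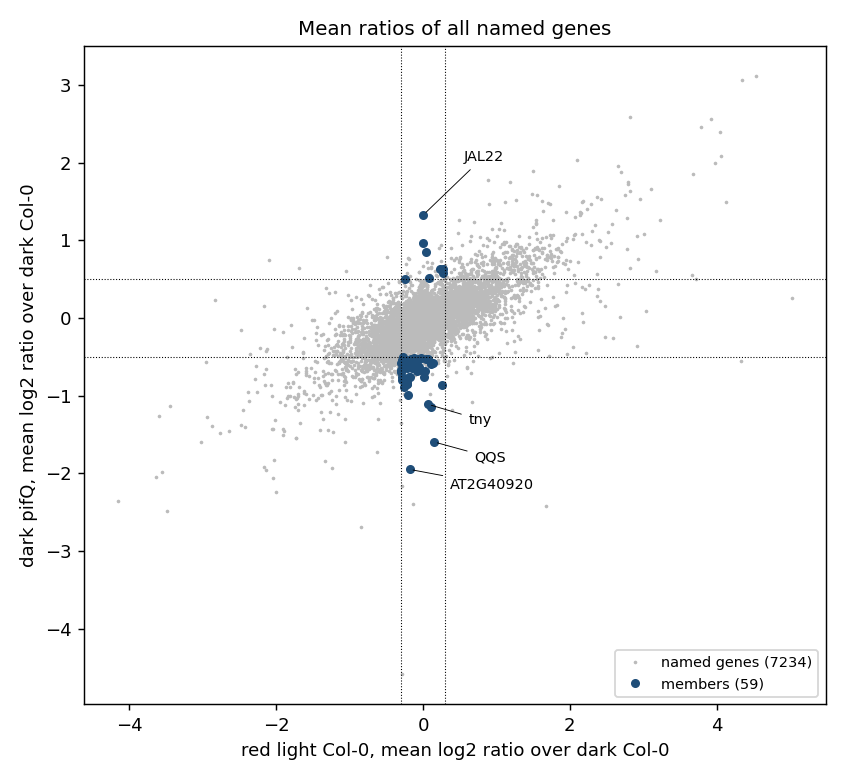
Mean log2 ratio over dark Col-0 in red light Col-0 (x axis) and in dark pifQ (y axis) for 7234 named genes (grey) and the 59 members (blue); dotted lines mark 0.3 in red light and 0.5 in pifQ. The lowest of the 51 lower members stands at log2 -1.95 in pifQ and the highest of the 8 higher members at 1.33, and grey genes lie around the members on both sides.

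Among the lower members, AT2G40920, QQS, AT2G05910 and TINY had at least 2-fold less transcript in dark pifQ than in dark Col-0. AT2G40920, for which no gene name is given in the annotation used, had log2 ratios of -2.45, -1.49 and -1.91 on pifQ replicates 1, 2 and 3 and of -0.08, -0.49 and 0.02 on the red light arrays. Its pifQ arrays all lay below its red light arrays, and its mean was 3.86-fold lower than in dark Col-0 (log2 -1.95 ± 0.48), the lowest of all members. QQS (QUA-QUINE STARCH) is an orphan gene of Arabidopsis that affects the allocation of carbon and nitrogen between starch and protein, and its level is known to vary among natural accessions. QQS stood at -1.40, -1.47 and -1.91 in pifQ and at 0.11, 0.49 and -0.16 in red light. The groups did not overlap, and QQS was 3.02-fold lower in pifQ (log2 -1.60 ± 0.28). Its red light mean of 0.15 became 0.30 without red light replicate 3, which just passed the limit of the rule.

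AT2G05910 stood at -1.54, -1.07 and -0.82 in pifQ and at 0.00, 0.58 and -0.24 in red light, a mean 2.21-fold below dark Col-0 in pifQ (log2 -1.14 ± 0.37). TINY (symbol tny), an AP2/ERF transcription factor of the DREB group whose overexpression gives small plants, stood at -1.31, -1.28 and -0.74 in pifQ and at -0.12, 0.18 and 0.14 in red light. TINY was 2.16-fold lower in pifQ (log2 -1.11 ± 0.32), with all pifQ arrays below the red light arrays.

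The next 8 lower members had pifQ means from log2 -0.99 to -0.76. AT1G78230 had values of -0.77, -0.87 and -1.34 in pifQ and of -0.39, -0.22 and -0.02 in red light, and AT3G22620 had -0.84, -0.79 and -0.95 in pifQ and 0.21, 0.74 and -0.19 in red light. Both kept the groups apart, and AT3G22620 varied little among the pifQ arrays (log2 -0.86 ± 0.08) and much among the red light arrays (0.26 ± 0.47). NGA1 (NGATHA1), a B3-type transcription factor of leaf margins and of style development, stood at -0.60, -0.50 and -1.32 in pifQ and at -0.28, -0.22 and -0.16 in red light, and AT5G18130 at -0.50, -1.24 and -0.82 in pifQ and at -0.13, -0.02 and -0.49 in red light. In NGA1 pifQ replicate 3 lay far below the others, and in AT5G18130 the groups were separated by a narrow gap.

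In the remaining 4 of these 8 genes a red light array reached into the pifQ range. AT5G55970 had -0.62, -1.22 and -0.83 in pifQ and 0.11, -0.12 and -0.76 in red light. AT3G47540 had -0.60, -0.67 and -1.30 in pifQ and 0.23, -0.22 and -0.67 in red light. In both genes the red light array that overlapped was replicate 3. AT2G35820 had -0.96, -1.09 and -0.34 in pifQ and -0.27, -0.18 and -0.43 in red light. AT4G02940 had -0.39, -1.38 and -0.52 in pifQ and -0.43, 0.01 and -0.14 in red light. The AT4G02940 mean of log2 -0.76 ± 0.54 rested mostly on pifQ replicate 2, and it had the largest pifQ SD of the lower members.

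**Figure D2:**
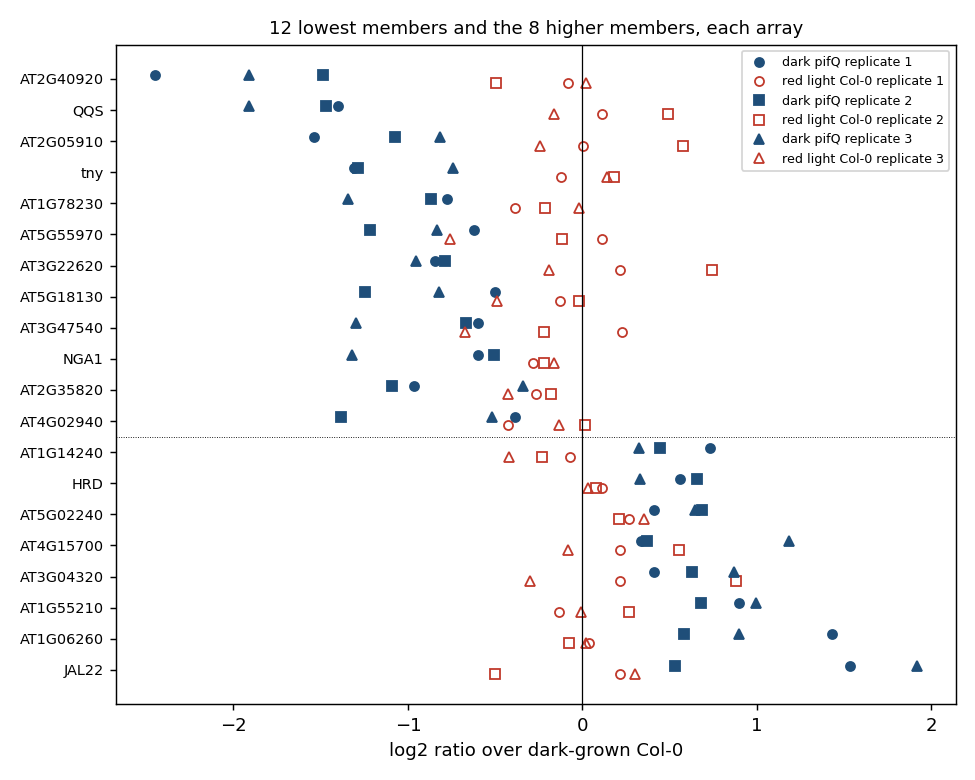
Log2 ratio over dark Col-0 on each array for the 12 lowest members (above the dotted line) and the 8 higher members (below it); filled blue symbols are dark pifQ, open red symbols red light Col-0, and the shape gives the replicate. AT2G40920, QQS, AT2G05910 and tny lie clear of their red light values, while red light replicate 3 lies among the pifQ values in AT5G55970 and AT3G47540.

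The other 39 lower members had pifQ means from log2 -0.76 to -0.50, with values from -1.21 to -0.30 on the pifQ arrays and from -0.60 to 0.83 on the red light arrays. Among those with a gene name are an enzyme of nitrogen recycling, E3 ligase components and a second NGATHA gene. ALN encodes allantoinase, which opens the ring of allantoin in the breakdown of purines and so frees nitrogen. ALN stood at -0.54, -0.79 and -0.72 in pifQ and at 0.09, 0.09 and -0.42 in red light (means log2 -0.68 ± 0.13 and -0.08 ± 0.30), with no overlap.

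PUB25, a plant U-box E3 ubiquitin ligase known from work on freezing tolerance, stood at -0.44, -0.76 and -0.84 in pifQ and at -0.26, 0.15 and 0.17 in red light, again without overlap. SKP2A, an F-box protein that targets cell cycle regulators for degradation and binds auxin, stood at -0.41, -0.92 and -0.40 in pifQ and at -0.05, -0.19 and -0.12 in red light. All pifQ values of SKP2A lay below the red light values, with pifQ replicate 2 well below the others. NGA2 (NGATHA2), which acts redundantly with NGA1, stood at -0.51, -0.62 and -0.45 in pifQ and at 0.12, 0.09 and -0.41 in red light. Its pifQ arrays were close together (log2 -0.53 ± 0.08), and red light replicate 3 came near them.

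AT1G72390 has the synonym PHL (PHYTOCHROME-DEPENDENT LATE-FLOWERING), a regulator of flowering time that interacts with phytochrome B. It stood at -0.44, -0.79 and -0.40 in pifQ and at -0.43, -0.21 and -0.22 in red light. Here the groups overlapped, and the means were log2 -0.54 ± 0.21 and -0.29 ± 0.12. PIP, a proline iminopeptidase that removes N-terminal proline from peptides, lay at the edge of the rule with -0.31, -0.63 and -0.57 in pifQ and -0.20, -0.23 and -0.41 in red light, which overlapped.

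Of the lower members without a name, AT3G32980 and AT2G40800 were the steadiest in pifQ. AT3G32980 had -0.64, -0.64 and -0.59, and AT2G40800 had -0.56, -0.61 and -0.50. AT1G68500 was the least steady in red light, at -0.19, 0.83 and -0.60, so its red light mean of 0.01 is an average over arrays of opposite sign (SD 0.74). In AT4G27480 the red light values of -0.27, -0.29 and -0.26 were almost equal and all below 0, with -0.99, -0.36 and -0.53 in pifQ.

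Of the 8 higher members, JAL22, AT1G06260 and AT1G55210 were at least 1.8-fold higher in dark pifQ than in dark Col-0. JAL22 is a jacalin-related lectin, a family of carbohydrate-binding proteins. JAL22 stood at 1.54, 0.53 and 1.92 in pifQ and at 0.21, -0.50 and 0.30 in red light, a mean 2.51-fold above dark Col-0 in pifQ (log2 1.33 ± 0.72). The groups did not overlap, but this pifQ SD was the largest of the 59 genes. AT1G06260 stood at 1.43, 0.58 and 0.90 in pifQ and at 0.04, -0.08 and 0.02 in red light, 1.96-fold higher (log2 0.97 ± 0.43). AT1G55210 stood at 0.90, 0.68 and 1.00 in pifQ and at -0.14, 0.27 and -0.01 in red light, 1.81-fold higher (log2 0.86 ± 0.16). Both had red light values around 0 and clear of the pifQ values.

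HRD (HARDY), another AP2/ERF transcription factor, known for the drought tolerance of plants that overexpress it, stood at 0.56, 0.66 and 0.33 in pifQ and at 0.11, 0.08 and 0.03 in red light (means log2 0.52 ± 0.17 and 0.07 ± 0.04). AT1G14240 stood at 0.73, 0.45 and 0.32 in pifQ and at -0.07, -0.23 and -0.42 in red light, on opposite sides of 0. AT5G02240 stood at 0.41, 0.69 and 0.64 in pifQ and at 0.27, 0.21 and 0.35 in red light, above 0 on all 6 arrays with a small gap between the groups. AT4G15700 stood at 0.33, 0.37 and 1.19 in pifQ and at 0.22, 0.55 and -0.08 in red light. AT3G04320 stood at 0.41, 0.63 and 0.87 in pifQ and at 0.21, 0.88 and -0.30 in red light. In both genes red light replicate 2 overlapped with pifQ.

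**Figure D3:**
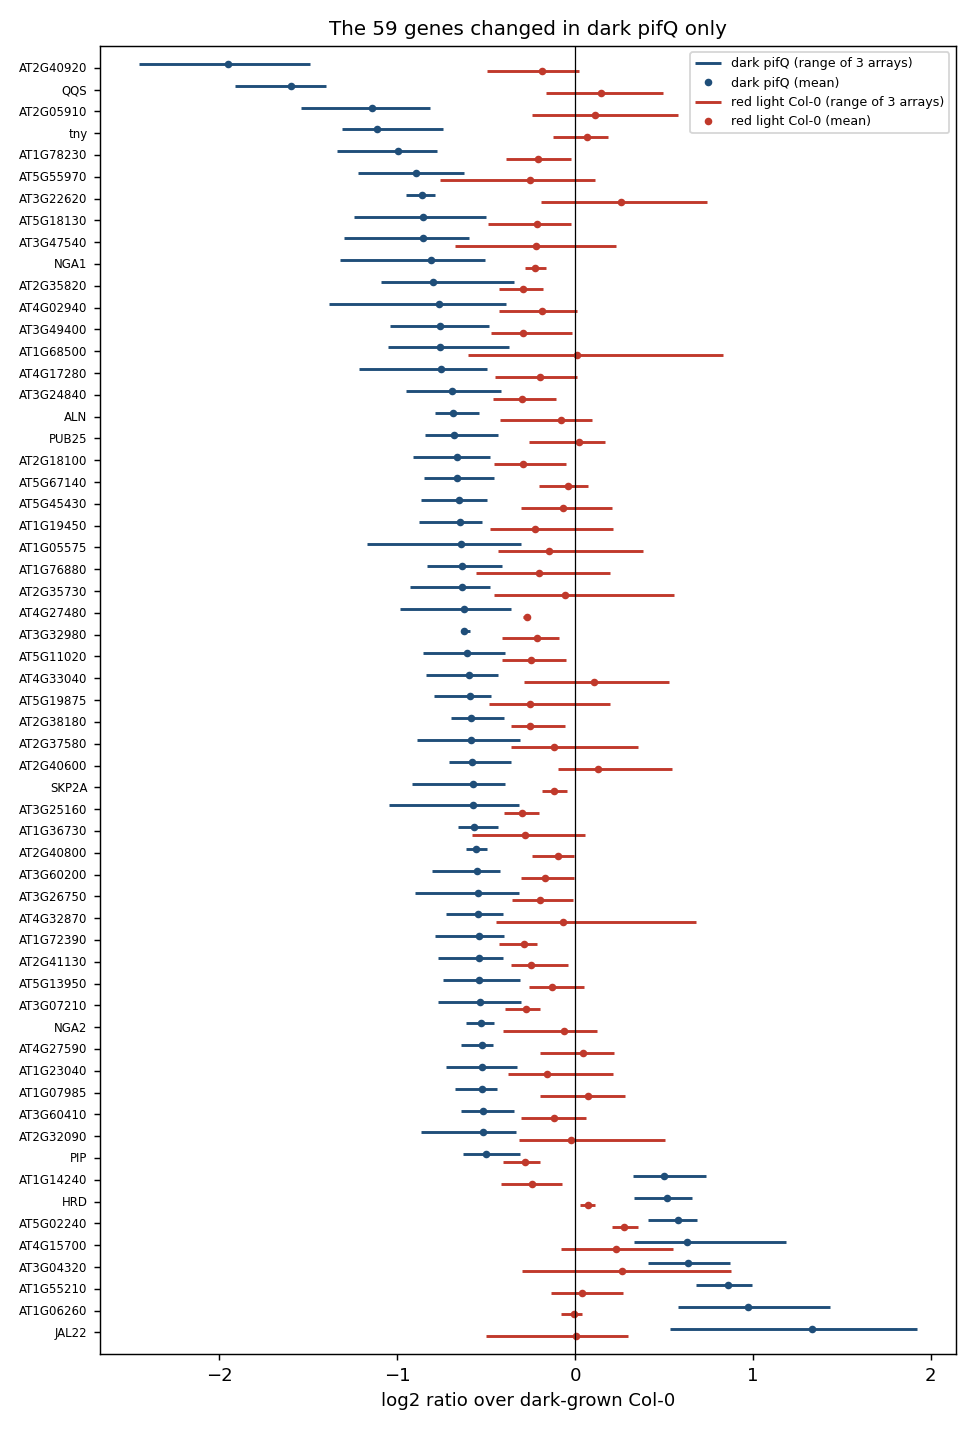
All 59 members ordered by their pifQ mean, from AT2G40920 at the top to JAL22 at the bottom; lines span the lowest to the highest of 3 arrays and dots mark means of the log2 ratio over dark Col-0, for dark pifQ (blue) and red light Col-0 (red). In 38 members the blue and red lines do not overlap, which the rule largely fixed. The pifQ line lies lower in 32 of them, against 13.2% of all 7234 genes, and higher in 6, against 10.6%.

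Red light means of the lower members were not spread evenly about 0. Their median was log2 -0.18 (range -0.30 to 0.26), with 41 below 0 and 10 above 0, beside a pifQ median of -0.63, and 23 of the 51 had a red light mean between 0.2 and 0.3 from 0. The higher members had a red light median of 0.06 (-0.24 to 0.28) and a pifQ median of 0.63. The rule also cut the red light means at 0.3 from 0. Of 362 named genes past the pifQ thresholds on the lower side, 57 (15.7%) had a red light mean within that limit, before loci and symbols were left out. The median red light mean of all named genes was -0.021. The part of this cut in the uneven spread was not tested. Red light and pifQ arrays share dark Col-0 as their reference, and its part in these values was not tested. The rule limits the red light mean and not each array: in 10 of 51 lower and 3 of 8 higher members all 3 red light arrays lay within 0.3 of 0. A red light array lay more than 0.5 from 0 in 15 members, which was replicate 2 in 13 of them and replicate 3 in 3, and replicate 1 in none (0). Among these, AT1G68500 had replicates 2 and 3 beyond that distance.

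Within pifQ, replicate 3 was the array nearest 0 in 30 of the 59 members (50.8%), against 39.9% of all named genes that met the pifQ thresholds of the rule. Replicate 2 was the farthest from 0 in 27 members (45.8%), against 31.3% of those genes. The medians of the lower members were -0.60, -0.77 and -0.51 on pifQ replicates 1, 2 and 3, and those of the higher members 0.65, 0.60 and 0.88, so replicate 3 was nearest 0 for the lower members and farthest for the higher ones.

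The rule chose the members on these same arrays, so the counts that follow were largely fixed by it and nothing is read from them. By limma, with both groups in the same fit and Benjamini-Hochberg adjustment over all 7234 genes, 45 of the 51 lower and 6 of the 8 higher members passed an adjusted p of 0.05 in pifQ against dark Col-0, where 7.04% of all genes passed as lower and 4.59% as higher. Between red light Col-0 and dark pifQ, 5 members passed as higher in red light, against 2.20% of all genes, and 1 as lower, against 1.16%. In red light against dark Col-0, 0 members passed by limma, where 37.8% of all genes passed. At an unadjusted p under 0.05 there were 3 members, against 3383 of the 7234 genes (46.8%). The 0 for red light did not hold under every setting. With array weights 25 members were among 4508 called genes. With the spread of red light alone 2 members were among 3044, and without red light replicate 2, 1 was among 1688. The pifQ and red light arrays did not overlap in 38 members: pifQ lay lower in 32, against 13.2% of all genes, and higher in 6, against 10.6%. With 1 array left out, fewer genes in total were called in pifQ than the 841 of the full fit. Members numbered 9 of 230 called genes when pifQ replicate 1 was left out, 12 of 288 without pifQ replicate 2, and 38 of 718 without pifQ replicate 3. Without red light replicates 1, 2 and 3 they numbered 29 of 486, 55 of 804 and 44 of 676, against 51 in the full fit. Genes called higher rose from 332 to 366 without pifQ replicate 3. Between red light and pifQ, members numbered 1 of 61, 2 of 105 and 4 of 160 called genes when red light replicates 1, 2 and 3 were left out in turn. Without pifQ replicates 1, 2 and 3 they numbered 2 of 81, 3 of 82 and 9 of 563.

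Members close to the limits differed little from genes just beyond them. For the pifQ mean, AT1G14240 (log2 0.502) and PIP (-0.502) lay just inside, and AT5G48740 (-0.499) and AT4G17620 (-0.497) just outside. For the red light mean, AT3G25160 (-0.298) and AT3G24840 (-0.297) lay just inside, and AT2G24280 (0.301) and VHA-A1 (-0.315) just outside. With the red light limit at 0.2, 28 lower and 4 higher members were left, and with each red light array held within 0.3, 10 and 3.

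Position in the genome was not used to choose members, apart from the stretch left out around PIF4. The members fell on all 5 chromosomes: 13 of 1936 named genes on chromosome 1 (0.672%), 15 of 1080 on chromosome 2 (1.39%), 14 of 1436 on chromosome 3 (0.975%), 8 of 1074 on chromosome 4 (0.745%) and 9 of 1708 on chromosome 5 (0.527%). The 1080 genes of chromosome 2 include the 127 of the stretch left out around PIF4, which could not be members. Distances are given as numbers of annotated protein-coding genes, since the build behind the array features is not named. Of the members, 16 lay within 50 genes of another member, in 9 successive pairs, 0 of them directly adjacent. Both genes were lower in pifQ in all 9 pairs, as were 51 of all 59 members. The count expected for members spread at random over the genome was not worked out, so nothing is read from these pairs.

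In one such run AT2G40600, AT2G40800, AT2G40920 and AT2G41130 lie in a stretch of 63 protein-coding genes that ends 7 genes before the interval left out around PIF4. The stretch held 22 named genes, of which these 4 met the rule, against 0.816% of all named genes. Its ends were set by members, AT2G40600 and AT2G41130, so this count carries no test. AT2G40920, the lowest member, lies 234 genes before PIF4 and 34 before that interval. AT2G40600 stood at -0.71, -0.67 and -0.36 in pifQ and at -0.06, 0.55 and -0.10 in red light, and AT2G41130 at -0.44, -0.77 and -0.41 in pifQ and at -0.34, -0.36 and -0.04 in red light. Of the other genes there, the MYB gene MYBC1 (log2 -1.44 in pifQ, -1.29 in red light) and AT2G41120 (1.71 and 1.85) were far from 0 in both groups, and the direct neighbour of AT2G40920, AT2G40925, was near 0 in both (-0.01 and -0.06). BZIP17 (-0.56 in pifQ, -0.19 in red light) and AT2G41000 (-0.55 and 0.29) had means within the limits of the rule, but each had 1 pifQ array within 0.3 of 0.

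Taking the genes within 600 protein-coding genes of each mutated PIF gene, 17 of 329 named genes around PIF4 (5.17%) met the value thresholds, 8 of them members and 9 inside the interval left out. Around PIF1 2 of 292 (0.685%) did so, around PIF3 4 of 344 (1.16%) and around PIF5 3 of 319 (0.940%). Among the 7107 named genes outside the interval left out, 60 (0.844%) met the thresholds, and inside it 9 of 127 (7.09%). From 200 to 400 genes before PIF4 the share was 4 of 55 (7.27%), from 400 to 600 genes before it 3 of 60 (5.00%), from 200 to 400 genes after it 0 of 45, and from 400 to 600 genes after it 1 of 43 (2.33%). These windows were chosen after the values were seen and carry no test. Within 50 genes of PIF1, PIF3 or PIF5 there was no member among 26, 31 and 28 named genes. The members nearest to these genes were AT2G18100, 211 genes before PIF1, AT1G07985, 164 genes before PIF3, and AT3G60200, 115 genes after PIF5. In the interval left out, the 3 genes farthest from 0 with such values were AT2G42780 (-4.59 ± 0.95 in pifQ, -0.28 ± 0.15 in red light), AT2G42270 (-2.40 ± 0.34 and -0.14 ± 0.22) and AT2G42760 (-2.16 ± 0.36 and -0.28 ± 0.25), each lower in pifQ than any of the 59 members.

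**Figure D4:**
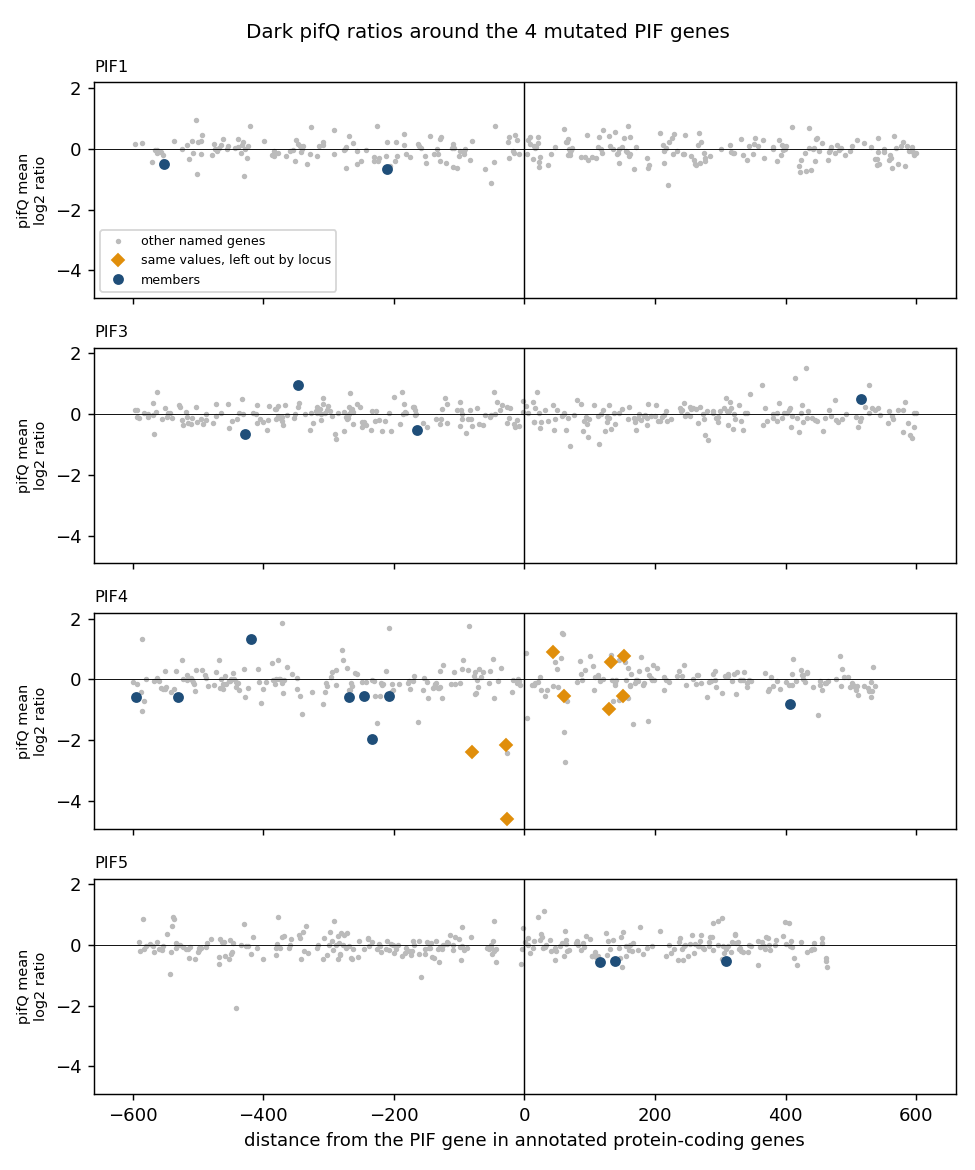
Mean dark pifQ log2 ratio of named genes against their distance, in annotated protein-coding genes, from each mutated PIF gene (vertical line at 0); members are blue, genes with such values that were left out by locus are orange diamonds, other named genes grey. Around PIF4 17 of 329 genes met the thresholds, and around PIF1, PIF3 and PIF5 2 of 292, 4 of 344 and 3 of 319.

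Measured relatives of the named members, a set chosen after the values were seen, are given for comparison. Of the NGATHA genes NGA1, NGA2 and NGA4 were measured, and NGA4 stood at log2 -0.34 ± 0.15 in pifQ and -0.49 ± 0.08 in red light, below 0 in both. Of the AP2/ERF genes nearest in name, TINY2 stood at 0.30 ± 0.26 in pifQ and 0.73 ± 0.13 in red light, while tny was lower and HRD higher in pifQ, so these 3 genes show 3 patterns. The jacalin-related gene JAL31 stood at 0.30 ± 0.41 in pifQ and -1.03 ± 0.35 in red light, where JAL22 had a mean of 0.00.

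PUB26, a U-box ligase gene close to PUB25, stood at 0.03 ± 0.32 in pifQ and 0.92 ± 0.22 in red light, whereas PUB25 had -0.68 ± 0.22 and 0.02 ± 0.24. Of 9 U-box genes measured, PUB25 was the 1 member, and PUB19 (-0.80 ± 0.45 in pifQ, -0.53 ± 0.37 in red light) and PUB24 (0.62 ± 0.59 and 1.21 ± 0.52) stood on the same side of 0 in both groups. Of 8 genes of purine and ureide breakdown 2 were measured, ALN and UGLYAH, the ureidoglycine aminohydrolase of a later step. UGLYAH stood at -0.27 ± 0.17 in pifQ and 0.12 ± 0.09 in red light, less far from 0 in pifQ than ALN. Of the PIF and light signalling lists (PIF family, photoreceptors, light signalling regulators and PIF-bound growth genes), 3 of 36 genes were measured, PIF7, HAT2 and IAA29, and 0 were members.

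**Figure D5:**
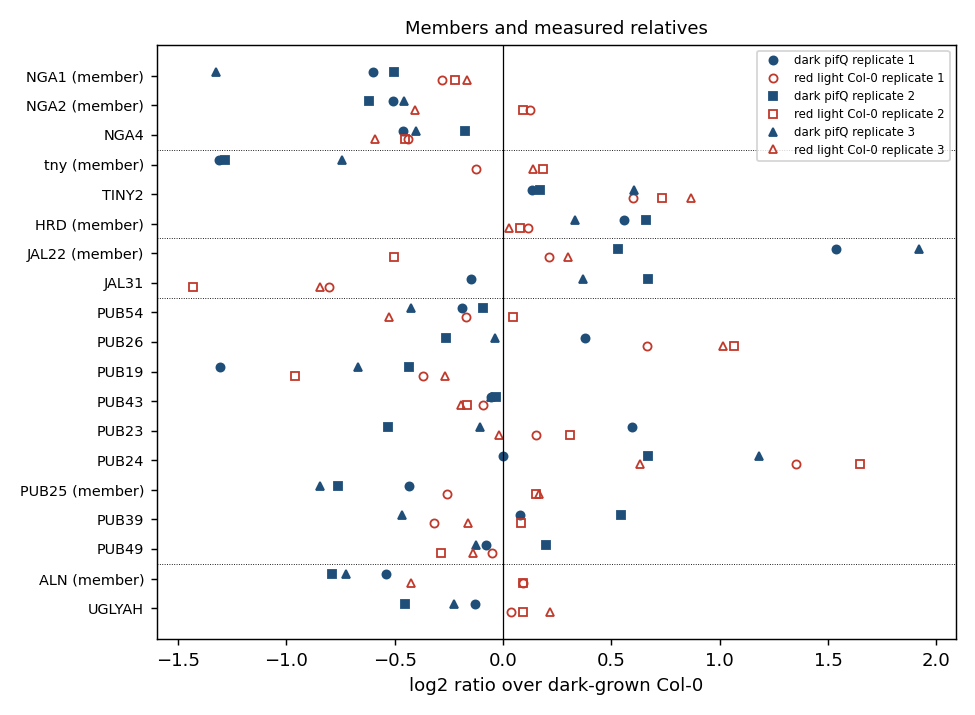
Log2 ratio over dark Col-0 on each array for the members NGA1, NGA2, tny, HRD, JAL22, PUB25 and ALN and their measured relatives, grouped by family (dotted lines). Filled blue symbols are dark pifQ, open red symbols red light Col-0, and the shape gives the replicate. PUB25 lies below 0 in pifQ, and PUB26 lies above 0 in red light.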

How the data were processed

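For each of 45220 features the deposited table gives a log ratio per array, read as a log2 ratio of the Cy5 sample over dark Col-0 (Cy3). The base is not stated and was taken as 2, and every fold size rests on it. The deposited values reach from -5.63 to 7.85, which does not settle the base. The submitters' processing notes name limma with no version. Not given in the sources used here are the background correction, the normalization within arrays and any filter on spots. No intensities came with the table, no value was missing and no dye swap was made. Direction came from the titles and dyes per the labels. Column medians over all features were -0.00073 (red light replicate 1), -0.0038 (replicate 2) and -0.0050 (replicate 3), then -0.0012 (pifQ replicate 1), -0.00036 (replicate 2) and -0.0014 (replicate 3). Over the named genes used here the medians lay farther below 0. They were -0.014, -0.016 and -0.031 on red light replicates 1, 2 and 3, and -0.047, -0.075 and -0.032 on pifQ replicates 1, 2 and 3. Dark Col-0 was hybridised only as the reference, so its own spread is left out as far as arrays shared an extract.

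Of the features, 7440 carry 1 gene name and 37780 are unnamed here. All 7440 matched TAIR10.1 by gene identifier and stand for 7234 genes (139 with several features, averaged per array, none of them a member). The fit used limma 3.58.1 under R 4.3.3 (lmFit, then eBayes), with 1 coefficient per group and the group mean set against 0 or against the other group, two-sided, Benjamini-Hochberg over 7234 genes. No filter on low values was used, and the fit was tested on simulated data. Members and gene lists were chosen with earlier results of these data known. Named with all arrays are the 12 lowest and all 8 higher members and members with a gene name. Other genes at the limits are given as means, and genes near other members or PIF genes with array values, with means or by name only. Classes by words in gene descriptions were void, since 13.1% of the 7234 genes have a descriptive symbol. Alternatives changed scaling, features, prior, weights, arrays, the replicate block and the limits of the rule.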

Additional observations from a re-analysis of the deposited data

How the results depend on the processing

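For 26 named members, 150 of 156 group means recomputed under the 3 other scalings moved by less than the SD of their 3 arrays. The other 6, all of pifQ, moved by more and lay farther from 0, 1 with scaling to the same spread and 5 with quantile normalization. Centring could move no mean that far. The medians it removed lay at most at -0.075 in pifQ and -0.031 in red light. The smallest SDs of these members were 0.082 (NGA2, pifQ) and 0.042 (HRD, red light). The counts, which are another measure, also changed with the settings. Leaving out 1 array gave 45 to 147 lower and 6 to 47 higher members, where the rule is looser by construction if that array is of pifQ. Other settings gave 87 lower members (arrays scaled to the same spread), 26 higher members (quantile normalization), 78 lower (pifQ limit at 0.4), 28 lower and 5 higher (pifQ limit at 0.6), 28 lower and 4 higher (red light limit at 0.2) and 10 lower and 3 higher (each red light array within 0.3). In pifQ against dark Col-0, 841 genes were called (332 higher, 509 lower), 230 to 804 without 1 array and 443 when the spread came from pifQ alone, with centring 775 (411 higher, 364 lower), with scaling 1212 (483 higher, 729 lower) and with quantile normalization 1246 (587 higher, 659 lower). In red light 2731 were called, 1432 to 3001 without 1 array and 4508 with array weights, 25 of them members. Between red light and pifQ 243 were called (159 higher, 84 lower), 61 to 563 without 1 array, 90 with scaling (72 higher, 18 lower), 74 with quantile normalization (55 higher, 19 lower) and 639 with array weights. The cause was not tested. With the replicate block 120 were called (92 higher, 28 lower), 4 of them members. Deviations of same-numbered arrays of the groups had r = -0.176, -0.148 and -0.167, each below the -0.111 to 0.256 of differently numbered arrays. So few arrays cannot decide whether same-numbered arrays share more than a number, and this was not tested. No spot intensities are given, so the part of weak signal was not tested.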

Other observations

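The same value thresholds were applied to the 37780 features that carry no gene name here and that the choice of members did not use. Of these features, 111 were lower and 66 higher in pifQ with a red light mean within 0.3 of 0, a less uneven split than the 57 lower and 12 higher named genes that met the thresholds before loci and symbols were left out. Of all unnamed features past the pifQ thresholds, 13.0% of the 856 lower and 9.48% of the 696 higher ones also had a red light mean within 0.3 of 0. Among named genes it was 15.7% of 362 lower and 4.33% of 277 higher ones. Several unnamed features may stand for the same gene, so these counts were not tested.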
